A study of Mus musculus with 28 samples.

Results

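The genes Cdh1, Cdh2, Cdh3, Cdh5, Cdh11, Cdh13 and Cdh16, a set that marks the exchange of cadherins between the mesenchymal and the epithelial state, were followed through the conversion of mouse embryonic fibroblasts into hepatocyte-like cells. They were taken by name, and the expected read counts of their transcripts were added up per gene, which gave 7 of the 23712 gene rows in the data. The question was the order in which the epithelial cadherin was gained and the mesenchymal cadherins were lost. All 7 passed the filter on low counts. RNA was sequenced from 28 libraries in 9 groups. MEF are C57BL/6 embryonic fibroblasts taken 13.5 days post coitum (n = 2). The groups 48h_Foxa1, 48h_Foxa2 and 48h_Foxa3 (n = 2 each) are MEFs given retroviruses on a pGCDNsam backbone that carried Hnf4alpha and the named Foxa factor, collected after 48 h. The group 48h_Foxa3del2 (n = 2) received Hnf4alpha with a Foxa3 mutant called del2. Its titles give 48 h while its stage label says iHep, and it was treated as a 48 h group. The groups iHep_Foxa1 (n = 6), iHep_Foxa2 (n = 4) and iHep_Foxa3 (n = 6) are established induced hepatocyte-like cells made with the same pairs of factors. Hep are hepatocytes freed with collagenase from livers of mice aged 10 weeks (n = 2). No library had an empty virus or Hnf4alpha alone, so infection and the factors cannot be told apart. The labels do not say that the libraries of a group came from separate embryos or cultures, so every p-value measures only the spread between libraries.

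Classical cadherins are calcium-dependent adhesion proteins that bind their like on the neighbouring cell and hold it through catenins tied to the actin cytoskeleton. Epithelia carry E-cadherin, while fibroblasts and other mesenchymal cells carry cadherins such as N-cadherin and cadherin-11. An exchange of one for the other accompanies passage between the mesenchymal and the epithelial state, and repressors of the Snail, Zeb and Twist families are known to hold the E-cadherin gene silent in mesenchymal cells. Liver is a special case among epithelia, since hepatocytes carry both E-cadherin and N-cadherin.

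Between 14592820 and 51743266 reads were assigned per library, and no 2 libraries of a group were within sampling noise of each other. Levels are CPM, reads scaled to a common library size, computed on a size adjusted by the trimmed mean of M values, given as mean ± SD with the n of the group. The introduced Foxa factor was high in its own groups, with a median of 48.3 CPM for Foxa1 in 48h_Foxa1, 45.6 CPM for Foxa2 in 48h_Foxa2 and 72.4 CPM for Foxa3 in 48h_Foxa3. In iHep the medians were 1021 CPM for Foxa1 in iHep_Foxa1, 1806 CPM for Foxa2 in iHep_Foxa2 and 1158 CPM for Foxa3 in iHep_Foxa3. Factor level thus also differs between 48 h and iHep, and its part in the cadherin changes was not tested. The libraries fell into a set of 14 with the small nuclear RNA gene Rn7sk at 17.2 CPM or more and a set of 14 with at most 5.98 CPM. All 6 libraries of 48h_Foxa1, 48h_Foxa2 and 48h_Foxa3 were in the first set. All libraries of MEF, Hep, 48h_Foxa3del2 and iHep_Foxa2 were in the second. A comparison of a group of the first set with one of these is thus also one between sets, and that includes iHep_Foxa2 against 48h_Foxa2. Of iHep_Foxa3, replicate 1 alone was in the second set, so iHep_Foxa2 against iHep_Foxa3 is largely a comparison between sets as well. A term for the set could be fitted only through iHep_Foxa1 and iHep_Foxa3, which hold libraries of both. A summed level of 10 fibroblast markers ran from 40154 to 43511 CPM in MEF, 26286 to 28749 CPM in the full-length 48 h libraries, 327 to 1557 CPM in iHep and 60.3 to 102 CPM in Hep. The same sum for 10 hepatocyte markers ran from 14.6 to 17.8, 22.7 to 27.9, 2336 to 32217 and 214187 to 232446 CPM. In bulk samples such as these, fewer cells of a type and less RNA per cell cannot be told apart.

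**Figure D1:**
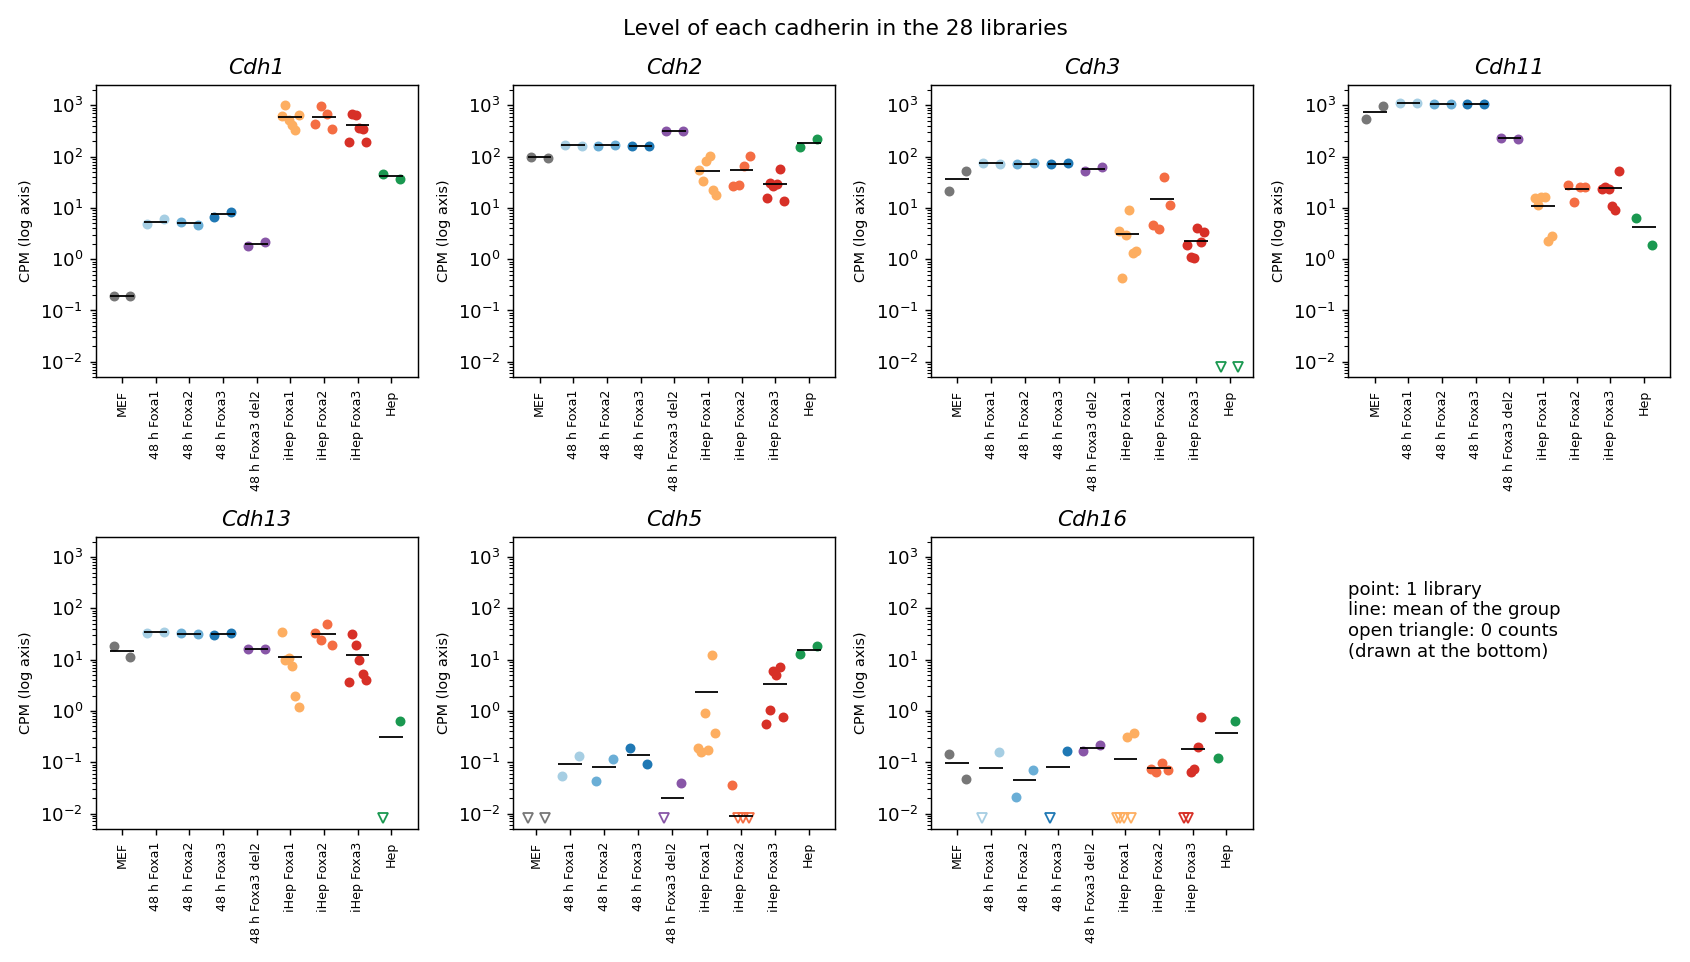
CPM on a log axis for each of the 7 cadherins, with 1 point per library, a line at the group mean and open triangles at the bottom for libraries with 0 counts. Cdh1 climbs from 0.191 CPM in MEF through 4.68 to 8.41 CPM at 48 h to 197 CPM or more in iHep, while Cdh11 lies between 1049 and 1109 CPM in the full-length 48 h libraries and at 51.7 CPM or less in every iHep library.

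The first comparison was that of the 48 h cells with the MEF group. The labels do not say whether the MEF libraries came from the cultures that were infected. Cdh1, which encodes E-cadherin, rose with each of the 3 Foxa factors and was the only one of the 7 cadherins called. The mesenchymal cadherins Cdh2, Cdh11 and Cdh13 were not lower at 48 h in any of the 6 libraries: each had a mean above that in MEF, without passing the test. E-cadherin transcripts were therefore higher in cultures where no fall of these transcripts was measured. Calls rest on edgeR's quasi-likelihood test over 16499 genes, with a Benjamini-Hochberg adjusted p below 0.05. The MEF libraries also differed from each other in the sum of 9 leukocyte markers, at 29.2 and 335 CPM, against 6.74 to 14.3 CPM in the full-length 48 h libraries, and its part in these comparisons was not tested. One of 7 members was called for each factor, against 5.25%, 5.48% and 5.21% of all genes with Foxa1, Foxa2 and Foxa3.

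Cdh1 stood at 0.192 and 0.190 CPM in the MEF libraries, which is 4 reads in each. At 48 h it was at 4.75 and 6.09 CPM with Foxa1, 5.27 and 4.68 CPM with Foxa2, and 6.75 and 8.41 CPM with Foxa3. Every 48 h library was above both MEF libraries, and the groups did not overlap. The rise was 27.8-fold with Foxa1 (log2 fold change 4.80 ± 0.75 SE, edgeR adjusted p = 0.00234). It was 25.6-fold with Foxa2 (4.68 ± 0.75 SE, adjusted p = 0.00243) and 38.9-fold with Foxa3 (5.28 ± 0.76 SE, adjusted p = 0.00132). The folds rest on 8 reads in MEF against 449, 448 and 685 reads in the 48 h groups. A term for the library set gave 4.88, 4.76 and 5.37 with adjusted p of 0.0087, 0.0092 and 0.0043. On log2(FPKM + 1) with limma, where these low levels are close to the pseudocount, the call ended for each factor (adjusted p = 0.135, 0.159 and 0.0634).

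Cdh2, the gene of N-cadherin, had 100.5 and 94.0 CPM in MEF. It had 166 and 164 CPM with Foxa1, 164 and 167 CPM with Foxa2, and 158 and 158 CPM with Foxa3 at 48 h. The 48 h libraries lay above both MEF libraries, but the log2 differences of 0.76, 0.77 and 0.70 (SE 0.70) did not pass the test. Fitted on the compared groups alone, the same differences for Cdh2 passed with adjusted p of 0.00649, 0.00652 and 0.00738. That fit takes its spread from 4 libraries that lie close together, whereas the fit over all groups shares the wider spread of the iHep libraries.

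Cdh11, the cadherin of mesenchyme and osteoblasts, had the highest level of the 7 in fibroblasts, at 537 and 951 CPM in MEF. At 48 h it was at 1093 and 1109 CPM with Foxa1, 1049 and 1083 CPM with Foxa2, and 1056 and 1069 CPM with Foxa3. The 6 libraries lay close together and above both MEF libraries, which themselves differed widely. The log2 differences of 0.56, 0.52 and 0.51 (SE 0.77) did not pass the test. Cdh13 encodes T-cadherin, which is held to the membrane by a lipid anchor and lacks the tail that binds catenins. It had 18.3 and 11.2 CPM in MEF and between 30.8 and 34.8 CPM in the 6 libraries at 48 h, again without overlap. Its log2 differences of 1.21, 1.13 and 1.10 (SE 1.08) did not pass either, and on the compared groups alone they did (1.17, 1.08 and 1.06, adjusted p = 0.022, 0.0345 and 0.0347).

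Cdh3, the gene of P-cadherin, which lies directly beside Cdh1 in the gene order of the RefSeq GRCm38.p6 annotation, is found in basal layers of epithelia as well as in some mesenchymal cells. Its mean at 48 h was above that in MEF, as with its neighbour, but by far less and without a call. MEF had 21.3 and 52.1 CPM, and the 48 h libraries lay between 70.7 and 76.5 CPM, above both but not called (log2 differences from 0.99 to 1.03, SE 0.99). Cdh5, the VE-cadherin of endothelium, had 0 reads in both MEF libraries and at most 0.188 CPM at 48 h. Cdh16, a cadherin of kidney tubules, reached at most 0.757 CPM in any of the 28 libraries and was not called in any of 25 comparisons.

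**Figure D2:**
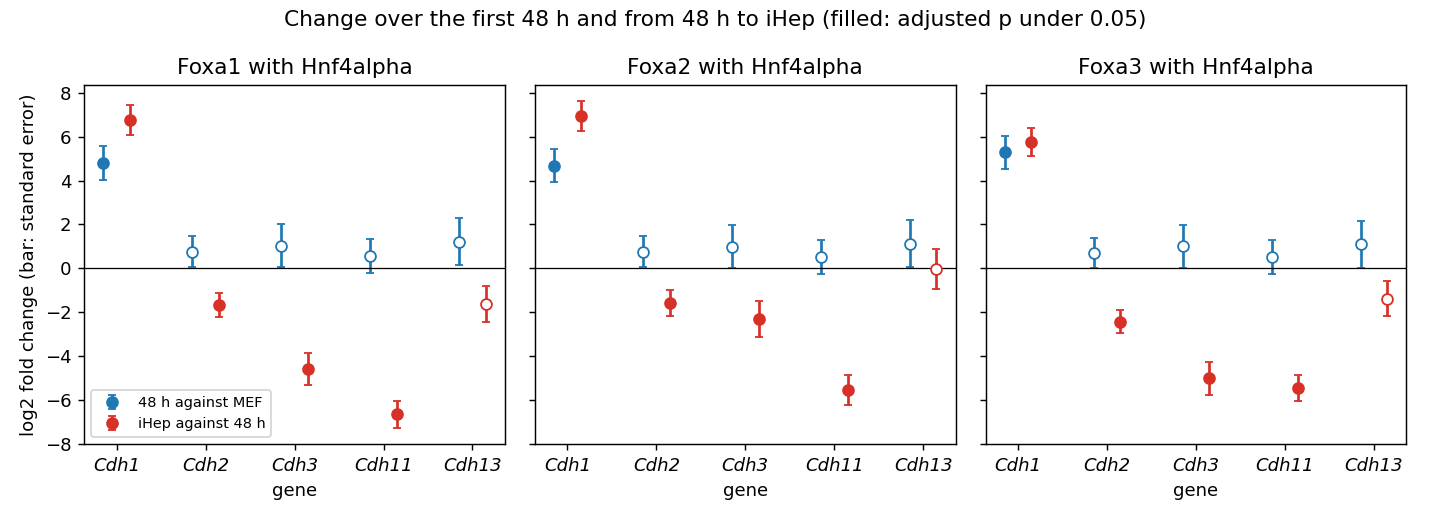
Log2 fold changes of 48 h cells against MEF (blue) and of iHep against 48 h cells (red) for Cdh1, Cdh2, Cdh3, Cdh11 and Cdh13, 1 panel per Foxa factor, with bars for the standard error and filled points for an adjusted p under 0.05. In the first step only Cdh1 is filled, and in the second Cdh1 is higher while Cdh2, Cdh3 and Cdh11 are lower with all 3 factors.

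The second comparison set the established iHep cells against the 48 h cells of the same factor. With Foxa2 the compared groups also lay wholly in different library sets. Cdh1 rose a second time and Cdh11, Cdh3 and Cdh2 fell with each of the 3 factors. Cdh11 showed the widest drop of the 3 and Cdh2 the narrowest. Of the 7 members 4, 4 and 5 were called with Foxa1, Foxa2 and Foxa3, while 42%, 40.1% and 40.6% of all genes were called in these comparisons. The counts of members are read against those shares, and the description below rests on the sizes of the differences.

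Cdh1 ranged from 333 to 1014 CPM in iHep_Foxa1, with a median of 569.5 CPM. The 4 libraries of iHep_Foxa2 had 428, 967, 682 and 340.4 CPM, and those of iHep_Foxa3 ranged from 197 to 678 CPM with a median of 357 CPM. No iHep library came near the 48 h libraries, and the 3 iHep groups overlapped each other. Against the 48 h cells of the same factor Cdh1 was 109-fold higher with Foxa1 (log2 6.77 ± 0.68 SE, edgeR adjusted p = 1.22e-07). The difference was 121-fold with Foxa2 (6.92 ± 0.69 SE, adjusted p = 2.36e-07) and 53.6-fold with Foxa3 (5.74 ± 0.64 SE, adjusted p = 3.96e-07). The sum of 8 duct markers was 1089 to 7295 CPM in iHep against 266 to 349 CPM at 48 h and 601 to 831 CPM in Hep. It was also 1041 to 1373 CPM in MEF, where Spp1, a secreted glycoprotein, had a mean of 1153 CPM, so this sum does not separate iHep from MEF. The sum of 7 basal markers was 28.7 to 395 CPM in iHep against 15.2 to 17.0 CPM at 48 h. The part of either list in the Cdh1 level was not tested.

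Cdh11 ranged from 2.28 to 16.5 CPM in iHep_Foxa1 with a median of 13.7 CPM, and from 9.14 to 51.7 CPM in iHep_Foxa3 with a median of 23.5 CPM. In iHep_Foxa2 it had 27.8, 12.8, 25.8 and 25.4 CPM. All 16 iHep libraries lay far below the 48 h libraries and below MEF. Cdh11 fell by 6.65 on the log2 scale with Foxa1 (SE 0.61, edgeR adjusted p = 4.24e-08), which is 101-fold. It fell by 5.54 with Foxa2 (SE 0.70, adjusted p = 4.01e-06) and by 5.47 with Foxa3 (SE 0.59, adjusted p = 2.6e-07), or 46.4-fold and 44.3-fold.

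Cdh3 was lower too, although its neighbour Cdh1 was higher in the same cells. It ranged from 0.431 to 8.91 CPM in iHep_Foxa1 (median 2.21 CPM) and from 1.06 to 4.03 CPM in iHep_Foxa3 (median 2.02 CPM). In iHep_Foxa2 it had 4.71, 3.83, 39.5 and 11.2 CPM, with 1 library well above the rest but still below every 48 h library. Cdh3 fell by 4.59 on the log2 scale with Foxa1 (SE 0.74, edgeR adjusted p = 5.37e-05) and by 5.01 with Foxa3 (SE 0.75, adjusted p = 1.9e-05). The fall of 2.29 with Foxa2 (SE 0.81, adjusted p = 0.0298) was 3.47 without replicate 3 of iHep_Foxa2. With Foxa1 it was 5.26 without replicate 4 of iHep_Foxa1. The Foxa2 call ended when the library set was added to the fit (adjusted p = 0.234) and on the compared groups alone (adjusted p = 0.0802). Leaving out 1 library at a time, it was kept in 1 of 6 fits, that without replicate 3 of iHep_Foxa2 (adjusted p up to 0.097 and a fall of as little as 1.97 in the others). The reads of Cdh3 are split between a pair of transcripts of nearly the same length, which were added.

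Cdh2 ranged from 18.0 to 102 CPM in iHep_Foxa1 (median 44.5 CPM) and from 13.6 to 58.5 CPM in iHep_Foxa3 (median 28.1 CPM), and it had 27.0, 28.5, 66.3 and 101 CPM in iHep_Foxa2. Every iHep library was below every 48 h library, while 2 libraries, 1 of iHep_Foxa1 and 1 of iHep_Foxa2, were above both MEF libraries. Cdh2 fell 3.18-fold with Foxa1 (log2 -1.67 ± 0.53 SE, edgeR adjusted p = 0.0148) and 2.97-fold with Foxa2 (-1.57 ± 0.58 SE, adjusted p = 0.036). With Foxa3 it fell 5.42-fold (-2.44 ± 0.52 SE, adjusted p = 0.000709). The calls with Foxa1 and Foxa2 ended on the compared groups alone (adjusted p = 0.0643 and 0.0551), and that with Foxa2 also with the library-set term (adjusted p = 0.171). Leaving out 1 library at a time, the Cdh2 call was kept in 6 of 8 fits with Foxa1 (adjusted p up to 0.0802) and in 2 of 6 with Foxa2 (adjusted p up to 0.122, with the smallest log2 difference at -1.34). The Foxa1 losses came without either 48 h library, and the Foxa2 losses without either 48 h library or without replicate 1 or 2 of iHep_Foxa2.

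Cdh13 varied more from library to library than Cdh2 and Cdh11 in iHep_Foxa1 and iHep_Foxa3 (SD of log2 CPM 1.75 and 1.27), but in iHep_Foxa2 its SD was 0.60 against 0.93 for Cdh2. It ranged from 1.17 to 35.1 CPM in iHep_Foxa1 (median 8.74 CPM) and from 3.64 to 31.0 CPM in iHep_Foxa3 (median 7.42 CPM). The 4 libraries of iHep_Foxa2 had 33.2, 23.9, 49.8 and 19.3 CPM, which overlap the 48 h libraries. No difference from 48 h passed the test (log2 -1.62 with Foxa1 and -1.38 with Foxa3, adjusted p = 0.112 and 0.185). Without replicate 1 of iHep_Foxa1, its highest library, the Foxa1 difference was -2.44 with an adjusted p of 0.0104.

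Cdh5 differed between the iHep groups. It had 1 read in all 4 libraries of iHep_Foxa2 together, ranged from 0.157 to 12.1 CPM in iHep_Foxa1 (median 0.281 CPM) and from 0.562 to 7.08 CPM in iHep_Foxa3 (median 3.04 CPM). Of the Foxa1 libraries, replicate 5 alone was above 1 CPM. Against 48 h the rise with Foxa3 passed the test (log2 4.55 ± 1.78 SE, edgeR adjusted p = 0.0466), and it ended under 10 of the alternatives tried. Markers of endothelium as a list were not higher in iHep. The sum of 15 endothelial markers was 10.2 to 40.2 CPM in iHep, below the 84.6 to 119.8 CPM of MEF, and Cldn5 and Emcn had 0 reads in all iHep libraries. Pecam1, 1 gene of the 15, was at 3.67 CPM in iHep_Foxa1, 0.149 CPM in iHep_Foxa2 and 1.31 CPM in iHep_Foxa3. Like Cdh5 it was lowest in iHep_Foxa2, but the other groups stood in the opposite order. The Cdh5 means were 2.32 CPM in iHep_Foxa1 and 3.40 CPM in iHep_Foxa3.

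The comparison of iHep with MEF, which spans both steps, gave the net change. Cdh1 was higher by 11.57, 11.60 and 11.03 on the log2 scale (SE 0.88, 0.88 and 0.86, edgeR adjusted p = 3.04e-09, 6.34e-09 and 3.36e-09). Cdh11 was lower in each (log2 -6.09, -5.02 and -4.96, adjusted p = 1.07e-07, 1.01e-05 and 7.1e-07). Cdh3 fell with Foxa1 and Foxa3 (-3.56 and -4.02, adjusted p = 0.000661 and 0.000166), and with Foxa2 the difference was -1.31 (adjusted p = 0.245). Cdh2 fell below its MEF level with Foxa3 alone among the 3 tests (-1.74, adjusted p = 0.0102), and this call ended without either MEF library (adjusted p = 0.0654 and 0.0565). With Foxa1 and Foxa2 the Cdh2 differences were -0.91 and -0.80 (adjusted p = 0.192 and 0.329). Cdh5 was called with Foxa1 and Foxa3, at least 32.5-fold and at least 47.5-fold above a floor of 3 reads over the MEF group (0.0716 CPM). The Foxa1 bound rests on replicate 5 of iHep_Foxa1, without which it was at least 5.09-fold. Over 10 alternative settings the Cdh5 call was kept in 6 with Foxa1 and in 8 with Foxa3. Both Cdh5 calls ended without either MEF library (edgeR adjusted p = 0.117 and 0.121 with Foxa1, 0.0817 and 0.0873 with Foxa3), where the floor rises and the bounds fall to 16.2-fold and 23.7-fold. Members called numbered 4, 2 and 5, against 39.9%, 30.7% and 46.6% of all genes.

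Whether a gene changed differently in the later step than in the first was tested as a contrast within the same fit, the change from 48 h to iHep minus the change from MEF to 48 h. Both steps share the 48 h libraries. For Cdh11 the steps differed with all 3 factors (log2 -7.22 ± 1.19 SE, -6.06 ± 1.20 SE and -5.98 ± 1.17 SE, edgeR adjusted p = 0.000361, 0.00173 and 0.00139), and these calls were kept without any 1 library. For Cdh3 they differed with Foxa1 (-5.61 ± 1.49 SE, adjusted p = 0.0111) and Foxa3 (-6.01 ± 1.50 SE, adjusted p = 0.00793), and the Foxa2 contrast of -3.28 did not pass (adjusted p = 0.121). For Cdh2 the contrast passed with Foxa3 (-3.14 ± 1.07 SE, adjusted p = 0.0426) and not with Foxa1 or Foxa2 (-2.43 and -2.34, adjusted p = 0.11 and 0.125). Cdh1 rose in both steps, and its contrasts of 1.98, 2.25 and 0.46 did not pass (adjusted p = 0.225, 0.161 and 0.834). On log2(FPKM + 1) with limma, which shrinks the first rise, the Cdh1 contrasts were 4.64, 4.81 and 3.46 and were called. Members called numbered 2, 1 and 3, against 21.9%, 23.3% and 19.2% of all genes. Leaving out 1 library at a time, the Cdh3 calls were kept in 7 of 10 fits with Foxa1 and in 7 of 10 with Foxa3. The Cdh2 call with Foxa3 was kept in only 2 of 10 fits, with contrasts from -3.46 to -2.99.

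Levels of different genes were compared on the deposited FPKM, which divide by transcript length. Of the summed FPKM of the 7 genes, Cdh11 made up 82% ± 5.01 in MEF and 78.8%, 78.6% and 78.8% at 48 h with Foxa1, Foxa2 and Foxa3. The first step therefore left the composition nearly as it was: Cdh1 went from 0.021% to 0.369%, 0.351% and 0.537%, and Cdh2 from 10.5% ± 3.99 to 10.7%, 11.1% and 10.6%. In iHep Cdh1 made up 86.2% ± 8.21, 77.5% ± 10.4 and 81.4% ± 5.81. Cdh2 then held 7.86%, 8.21% and 6.18%, while Cdh13 held 8.44% ± 3.29 in iHep_Foxa2, a larger share than Cdh11 there at 3.67% ± 1.93. The summed FPKM were 202 ± 69.8 in MEF, 364, 352 and 349 at 48 h and 159 ± 51.1, 179.6 ± 57 and 117 ± 55.6 in iHep.

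**Figure D3:**
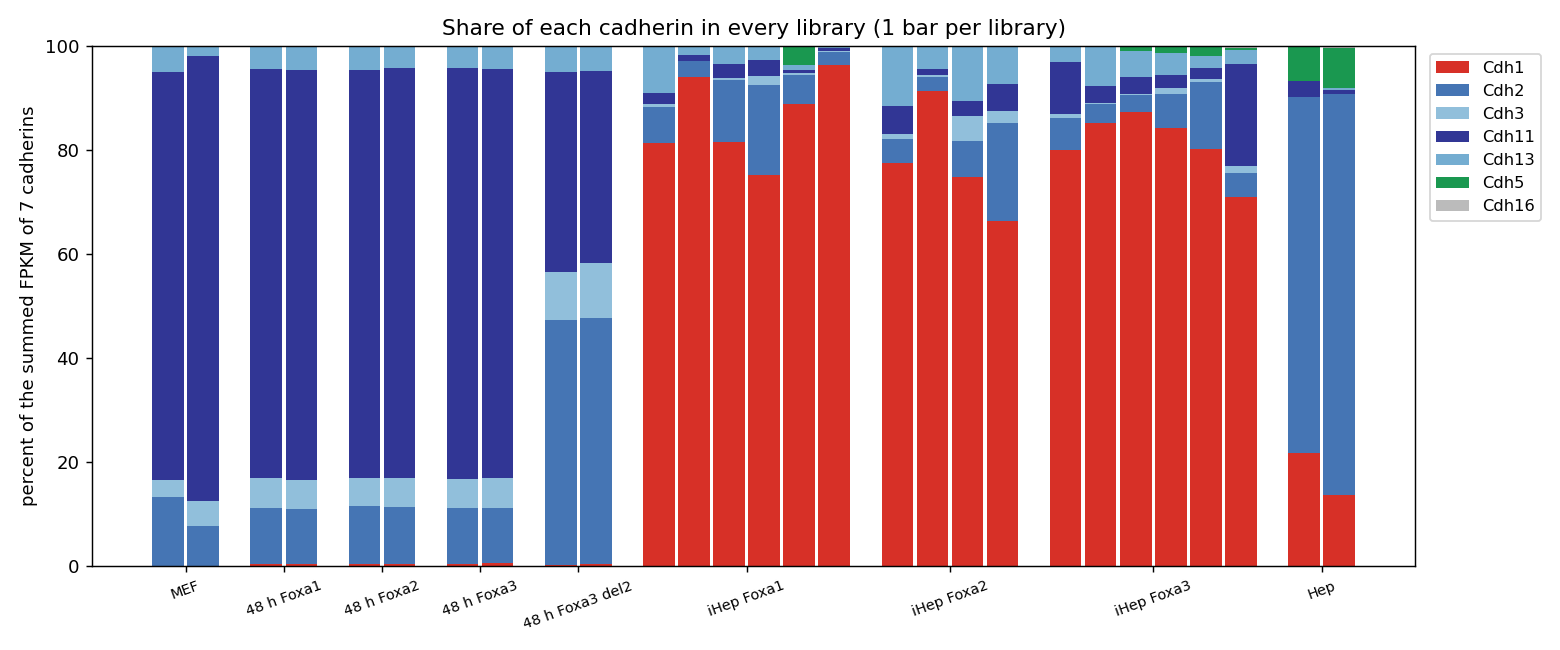
Percent of the summed FPKM of the 7 cadherins held by each gene, 1 bar per library, bars ordered by group. Cdh11 (dark blue) holds 78.5% to 85.5% of each MEF bar and Cdh1 (red) 66.4% or more of each iHep bar, while Cdh2 (mid blue) holds 68.4% and 77% of the Hep bars.

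The FPKM ratio of Cdh1 to Cdh2, a simple index of the exchange, was 0.00196 and 0.00207 in MEF. At 48 h it lay between 0.0296 and 0.0559 in the 6 full-length libraries, with Cdh2 still far above Cdh1. In iHep it lay between 4.36 and 38.2 with Foxa1, between 3.55 and 35.8 with Foxa2, and between 6.27 and 26.1 with Foxa3. All 16 iHep libraries were above 1, and all other libraries were below it. Hepatocytes, at 0.318 and 0.178, were between the 48 h and the iHep cells.

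**Figure D4:**
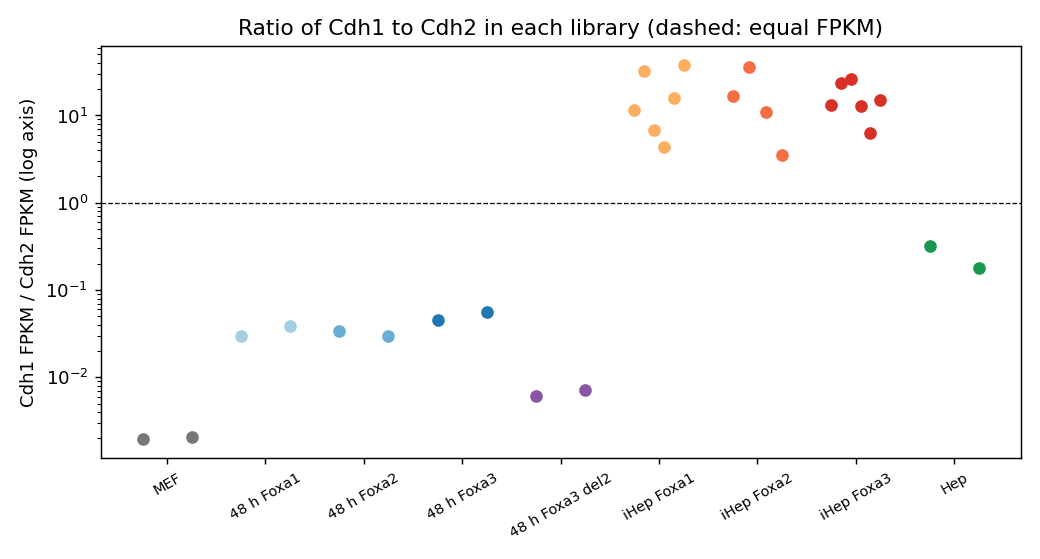
Ratio of Cdh1 to Cdh2 FPKM on a log axis, 1 point per library, with a dashed line where both genes have equal FPKM. The 16 iHep points lie between 3.55 and 38.2, and the Hep points at 0.318 and 0.178 fall below the line with all MEF and 48 h points.

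Hepatocytes shared the loss of Cdh11 with iHep cells but not the balance of Cdh1 and Cdh2. Cdh1 was at 46.4 and 36.7 CPM in Hep, above the 48 h libraries and below every iHep library. Cdh2 was at 154 and 217 CPM, above every iHep library on that scale. In FPKM, Hep had 17.25 and 25.7. Replicates 3 and 4 of iHep_Foxa1 (18.7 and 23.3) and replicate 4 of iHep_Foxa2 (23.8) lay above the lower of these. Against MEF, Cdh1 was higher (log2 7.74 ± 0.80 SE, edgeR adjusted p = 4.59e-08) and Cdh11 lower (-7.47 ± 1.04 SE, adjusted p = 2.61e-06), at 6.49 and 1.87 CPM. Cdh13 was lower (-5.56 ± 1.53 SE, adjusted p = 0.00373), a call that ended without Hep replicate 1 (-4.56, adjusted p = 0.0503). Cdh3 had 0 reads in both Hep libraries and was at least 198-fold lower than in MEF (adjusted p = 0.00012), with 0.185 CPM as the floor of 3 reads over the group. That bound was 115-fold without MEF replicate 2 and 98.3-fold without Hep replicate 1. The Cdh2 difference from MEF was 0.93 ± 0.70 SE and did not pass (adjusted p = 0.269). Members called numbered 5, against 56.9% of all genes. On the deposited FPKM scale, which lacks the TMM adjustment, Cdh2 was at 21.5 ± 5.97 in Hep, 19.8 ± 0.75 in MEF and 39.0, 38.9 and 37.1 at 48 h, so the rank of Hep above the 48 h groups in CPM is reversed in FPKM.

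Direct comparison of iHep with Hep used the same fit, in which the median of all genes was shifted by 0.42, 0.42 and 0.39 on the log2 scale toward iHep, or 0.21, 0.17 and 0.16 with DESeq2 size factors. Cdh1 was higher in iHep by 3.84, 3.86 and 3.29 (14.3-fold, 14.5-fold and 9.78-fold, edgeR adjusted p = 5.19e-06, 6.52e-06 and 2.17e-05), well beyond that shift. Cdh2 was lower in iHep (log2 -1.84, -1.73 and -2.67, adjusted p = 0.00477, 0.0136 and 0.000126). With limma on log2(FPKM + 1) the Cdh2 calls for Foxa1 and Foxa2 ended (adjusted p = 0.0837 and 0.166), and they ended without Hep replicate 2 (adjusted p = 0.0649 and 0.104). Cdh13 was higher in iHep (5.15, 6.65 and 5.28, adjusted p = 0.00385, 0.00063 and 0.00309). Without Hep replicate 1, the library with 0 reads of Cdh13, these were 4.15, 5.65 and 4.28, and the calls with Foxa1 and Foxa3 ended (adjusted p = 0.0613 and 0.0527). Without replicate 1 of iHep_Foxa1 the Foxa1 value for Cdh13 was 4.33. Cdh3 was at least 16.8-fold, 80.003-fold and 12.3-fold above the Hep floor (adjusted p = 0.00629, 0.000364 and 0.011). The Cdh3 bounds were 10.5-fold without replicate 4 of iHep_Foxa1 and 35.5-fold without replicate 3 of iHep_Foxa2. Without either Hep library, where the floor rises, they fell to as little as 8.31-fold, 39.7-fold and 6.08-fold, and the Cdh3 calls with Foxa1 and Foxa3 ended (adjusted p from 0.0516 to 0.0733). Cdh11 was higher with Foxa2 and Foxa3 (2.46 and 2.52, adjusted p = 0.0107 and 0.0075), calls that ended without Hep replicate 2 (1.82 and 1.88, adjusted p = 0.141 and 0.121) and became 3.61 and 3.67 without Hep replicate 1. With Foxa1 the Cdh11 difference was 1.38 (adjusted p = 0.107). Members called numbered 5, 6 and 5, against 60.1%, 60.6% and 61.9% of all genes.

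Cdh5 was at 12.7 and 18.7 CPM in Hep, its highest group mean of the 9 (15.7 ± 4.21 CPM), and at least 219-fold above the MEF floor (edgeR adjusted p = 0.00242). With 1 MEF library left out the floor rises, and the bound was as little as 109-fold. VE-cadherin is known from endothelium, and the sum of endothelial markers was also highest in Hep, at 182.7 to 209.7 CPM. There Stab2, a marker of liver sinusoids, was at 29.1 CPM and Pecam1 at 11.8 CPM. Over the other groups the sum did not follow Cdh5. It was 84.6 to 119.8 CPM in MEF, which had 0 reads of Cdh5, and 12.7 to 22.3 CPM in iHep_Foxa3. The part of endothelial cells in the Hep level of Cdh5 was not tested. The sum of 9 leukocyte markers was 225 to 265 CPM in Hep and 0.0784 to 4.82 CPM in iHep. Against Hep, Cdh5 was lower by 2.77 on the log2 scale in iHep_Foxa1 (adjusted p = 0.0488, lost under 11 alternatives), and the difference of -2.21 for iHep_Foxa3 did not pass (adjusted p = 0.113).

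Among the 3 Foxa factors no cadherin was called different at 48 h, while Cdh3 and Cdh5 were called in iHep. At 48 h none of the 7 was called in any of the 3 pairs, nor did any reach an unadjusted p under 0.05, where 0.00606%, 0.0121% and 0.0121% of all genes were called by edgeR. Both 48h_Foxa3 libraries had more Cdh1 than the 4 others, but the log2 differences of -0.48 ± 0.55 SE for Foxa1 and -0.61 ± 0.55 SE for Foxa2 against Foxa3 did not pass (adjusted p = 1). In iHep the levels of Cdh1 differed by -0.03, 0.55 and 0.57 between Foxa1 and Foxa2, Foxa1 and Foxa3, and Foxa2 and Foxa3, none past the test (adjusted p = 0.979, 0.286 and 0.212). Cdh3 was higher in iHep_Foxa2 than in iHep_Foxa1 (log2 -2.25 ± 0.64 SE for Foxa1 against Foxa2, adjusted p = 0.0323) and iHep_Foxa3 (2.71 ± 0.65 SE, adjusted p = 0.00507), though the groups overlapped. Without replicate 3 of iHep_Foxa2 these were -1.08 and 1.53 and not called (adjusted p = 0.263 and 0.0634). Cdh5 was lower in iHep_Foxa2 than in both others (adjusted p = 0.0175 and 0.00308), and with 1 read in that group only the levels are given. Both Cdh5 calls were lost once the library set was a term of the fit (adjusted p = 0.113 and 0.0809). Members called numbered 2, 0 and 2 for the 3 pairs, against 11%, 8.32% and 31.1% of all genes.

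The iHep groups also varied within themselves. The SD of log2 CPM across libraries was 0.56, 0.68 and 0.79 for Cdh1 with Foxa1, Foxa2 and Foxa3, against a median of 0.56, 0.34 and 0.44 over all genes. Cdh5 and Cdh13 varied more in iHep_Foxa1, with SDs of 2.23 and 1.75, which exceeded those of 97.9% and 94.2% of genes. Cdh3 varied most in iHep_Foxa2 among its 3 groups (SD 1.52). Over the 16 iHep libraries Cdh1 had a Pearson r of 0.22 with Cdh2 and -0.19 with Cdh11, and Cdh2 one of 0.54 with Cdh3. These are descriptions over libraries that share groups and library sets.

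Cells with the Foxa3 mutant del2 had a different balance from 48h_Foxa3, although no member passed the test. Cdh1 was at 1.79 and 2.18 CPM, between MEF and the full-length 48 h libraries. Cdh11 was at 229.98 and 225 CPM, below both MEF libraries and all other 48 h libraries. Cdh2 was at 309.7 and 320.1 CPM, the highest of any group. Against 48h_Foxa3 none of 7 was called by edgeR while 2.98% of all genes were, and 2 members had an unadjusted p under 0.05. These were Cdh1 (log2 -1.93 ± 0.57 SE, adjusted p = 0.0685) and Cdh11 (-2.22 ± 0.80 SE, adjusted p = 0.14). The Cdh2 difference was 0.99 ± 0.70 SE (adjusted p = 0.525). The DESeq2 Wald test called Cdh1 and Cdh11 (-1.97 and -2.26, adjusted p = 0.0101 and 0.0452), as did a term for the library set (-2.02 and -2.89, adjusted p = 0.0441 and 0.0304). The groups of this pair lie wholly in different library sets, so in a fit without that term the mutation and the set cannot be told apart. The term itself is estimated only within iHep_Foxa1 and iHep_Foxa3, so it cannot separate them among 48 h cells either.

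Other values moved with the del2 group. Foxa3 had a median of 559 CPM there against 72.4 CPM in 48h_Foxa3, and Hnf4a 732 CPM against 67.2 to 81.3 CPM at 48 h with full-length factors. In iHep_Foxa3, the stage that the del2 label names, Foxa3 ranged from 653 to 2074 CPM and Hnf4a from 548 to 1505 CPM. The hepatocyte marker sum was 701 to 786 CPM against 24.7 to 27.9 CPM in 48h_Foxa3, and the leukocyte sum 58.6 to 65.5 CPM against 10.7 to 10.9 CPM. The fibroblast marker sum was 10832 to 12029 CPM, the smooth muscle and pericyte sum 3255 to 3386 CPM against 2105 to 2145 CPM in 48h_Foxa3, and the kidney sum 85.7 CPM against at most 9.03 CPM, chiefly Cubn. The part of these differences in the cadherin levels was not tested. Against MEF, Cdh1 was higher in del2 (log2 3.35 ± 0.75 SE, edgeR adjusted p = 0.00496), a call that ended without MEF replicate 2 (adjusted p = 0.0556) and with limma on log2(FPKM + 1) (adjusted p = 0.526), in a comparison that called 15.8% of all genes. The Cdh2 and Cdh11 differences from MEF of 1.70 and -1.71 did not pass (adjusted p = 0.107 and 0.141). Against iHep_Foxa3, the other comparator, 5 members were called beside 32.7% of all genes: Cdh1 was lower (-7.68), Cdh5 was lower, and Cdh2, Cdh3 and Cdh11 were higher (3.43, 4.67 and 3.25). In FPKM shares Cdh2 with 47.2% ± 0.316 stood above Cdh11 with 37.6% ± 1.16, an order seen in neither MEF nor the full-length 48 h groups, and the ratio of Cdh1 to Cdh2 was 0.00608 and 0.00716.

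Repressors of Cdh1 were read from a list of 11 genes, all of them tested. At 48 h edgeR called none of 11 with any factor, beside 5.25%, 5.48% and 5.21% of all genes. With shares this low, a count of none does not set the list apart from other genes. Of the 11, 2 had an unadjusted p under 0.05 each time, and the medians were 0.24, 0.23 and 0.21 against 0.04, 0.06 and 0.06 over all genes. Twist1, a helix-loop-helix factor of mesenchyme, was at 77.5 CPM in MEF and 132, 133 and 137 CPM at 48 h. Zeb1, a zinc finger repressor that binds the Cdh1 promoter, was at 78 and then 85.5, 91 and 86.6 CPM. Tcf4, whose E2-2 protein also binds E-boxes, was at 157 and then 222, 219 and 218 CPM, while Tcf3, which encodes E2A proteins, was at 235 and then 129, 129 and 135 CPM. Snai2, which encodes Slug, was named after its values were seen, with 34.0 CPM in MEF and 76.8, 78.8 and 71.3 CPM at 48 h.

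Most of the listed repressors were lower in the second step. Of 11, 9, 6 and 9 were lower in iHep than at 48 h and none was higher, while 20.7%, 19.7% and 21% of all genes were lower. Their medians were -2.64, -1.83 and -2.47 against 0.08, 0.02 and 0.05 over all genes. Tcf4 fell by 2.42, 1.87 and 2.47 on the log2 scale (edgeR adjusted p = 2.68e-08, 5.77e-06 and 1.6e-08). Snai2 fell by 3.85, 2.98 and 3.95, to 5.33, 9.96 and 4.60 CPM. Twist1 fell by 2.01, 1.83 and 1.64, and Zeb1 fell by 1.73, 1.58 and 0.96, to 25.8, 30.4 and 44.4 CPM. Tcf3 was not called. The mean levels of Zeb1 and Twist1 in Hep were 12.8 and 0.310 CPM, below those of each iHep group. Foxc2 stood apart in iHep_Foxa2 with 29.5 CPM against 0.514 and 0.162 CPM in iHep_Foxa1 and iHep_Foxa3 (log2 7.48 ± 1.34 SE against Foxa3, adjusted p = 0.000843). In Hep 10 of 11 repressors were lower than in MEF, Twist1 by the most of those named (-7.95), while 32.6% of all genes were lower.

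**Figure D5:**
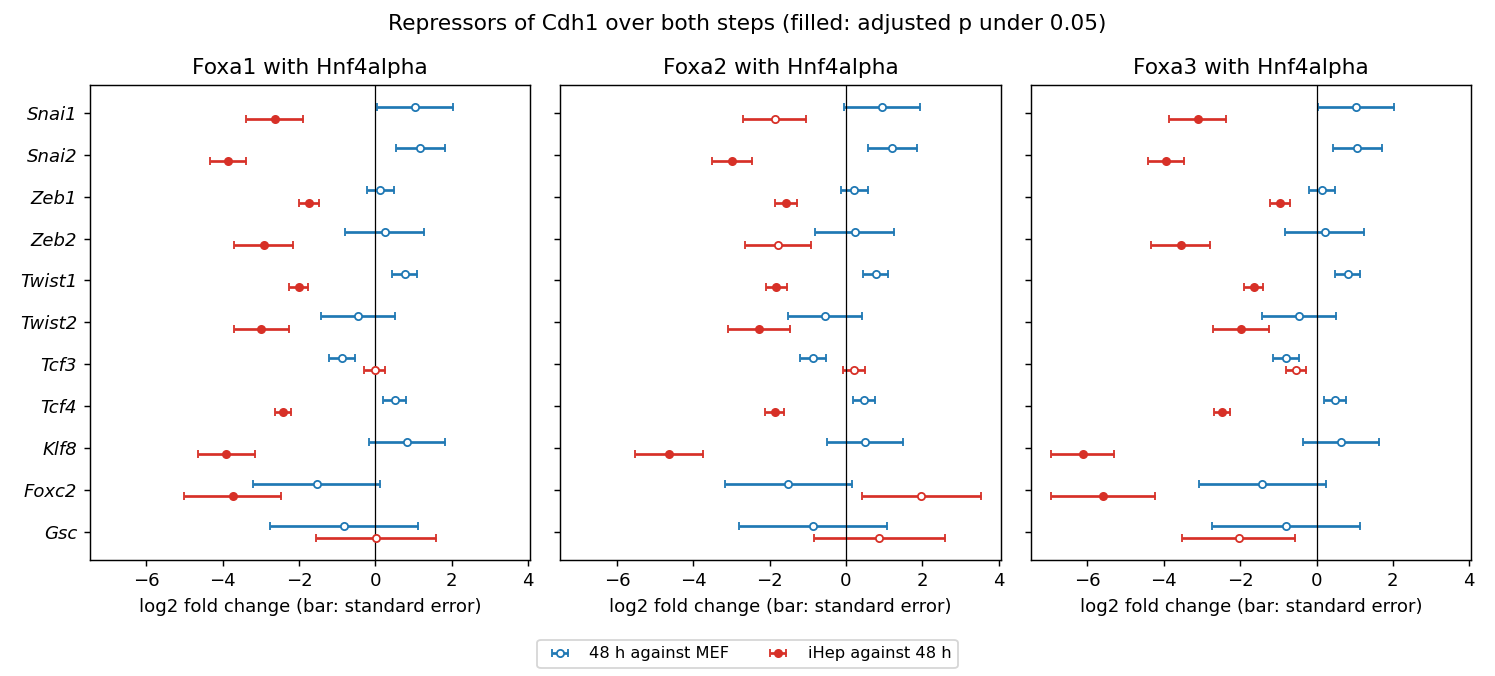
Log2 fold changes of the 11 listed repressors of Cdh1 for 48 h against MEF (blue) and iHep against 48 h (red), 1 panel per Foxa factor on a shared axis, with bars for the standard error and filled points for an adjusted p under 0.05. No blue point is filled, and 9, 6 and 9 red points are filled, all of them below 0.

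Desmosomes are the second adhesive junction of epithelia and use their own cadherins, the desmogleins and desmocollins. Of 14 listed genes 10 were tested, and edgeR called none of these at 48 h, beside 5.25%, 5.48% and 5.21% of all genes. Nor did any of the 10 reach an unadjusted p under 0.05. In iHep against 48 h, 6, 7 and 4 were higher and 1, 0 and 1 lower, with medians of 3.83, 3.42 and 1.91. Of all genes 21.2%, 20.4% and 19.6% were higher in these comparisons and 20.7%, 19.7% and 21% lower. Pkp2, a plakophilin of desmosomal plaques, went from 4.70, 5.07 and 5.47 to 80.7, 44.3 and 95.2 CPM (log2 4.10, 3.13 and 4.12). Perp, a desmosomal membrane protein, rose by 2.69, 3.44 and 2.44. The desmoglein gene Dsg2 rose from 0.217, 0.169 and 0.218 to 51.8 ± 52.2, 34.2 ± 45.4 and 7.57 ± 4.47 CPM, with an SD near or above the mean in iHep_Foxa1 and iHep_Foxa2. In Hep it was at 227 ± 19.9 CPM. Unlike Cdh1, Dsg2 was therefore lower in iHep than in Hep (-2.13, -2.73 and -4.90). Dsp, the plaque protein desmoplakin, rose with Foxa1 and Foxa2 (3.56 and 3.39) and differed by 1.15 without a call with Foxa3, and it was higher in iHep_Foxa1 than in iHep_Foxa3 (2.41 ± 0.66 SE, adjusted p = 0.0283), although these groups overlapped. In the del2 cells Pkp2 was the 1 desmosomal gene called against 48h_Foxa3 (1.90, adjusted p = 0.0194).

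The catenins that bind classical cadherins, and other adherens junction partners, were read from 18 genes, of which 17 were tested. One was called at 48 h with each factor: Nectin2, an immunoglobulin-type adhesion protein of the same junction, fell from 113 to 19.3, 19.7 and 19.7 CPM (edgeR adjusted p = 0.0251, 0.0269 and 0.0264). Of all genes 5.25%, 5.48% and 5.21% were called in that step. In the second step 4, 6 and 4 were higher and 7, 6 and 6 lower, beside 21.2%, 20.4% and 19.6% of all genes higher and 20.7%, 19.7% and 21% lower. Ctnnb1, the gene of beta-catenin, was at 911, 901 and 923 CPM at 48 h and at 1371, 1334 and 1251 CPM in iHep, a rise with Foxa1 and Foxa2 (log2 0.59 and 0.57, adjusted p = 0.0223 and 0.0366) and 0.44 without a call with Foxa3. Ctnna1, the gene of the epithelial alpha-catenin that links beta-catenin to actin, rose by 0.50, 0.51 and 0.45. The neural alpha-catenin gene Ctnna2 fell by 6.09, 6.07 and 8.83 from 4.41, 4.14 and 4.41 CPM. Vcl, the actin linker vinculin, fell by 2.61, 2.11 and 2.27. The 2 catenin genes Ctnnb1 and Ctnna1 thus changed by less than 1 log2 unit, while Cdh1 changed by more than 5.

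Other members of the cadherin superfamily numbered 21, of which 16 were tested. At 48 h edgeR called none, beside 5.25%, 5.48% and 5.21% of all genes, with 3 at an unadjusted p under 0.05 for each factor. In iHep against 48 h, 3, 2 and 1 were higher and 9, 9 and 12 lower, with medians of -4.19, -3.86 and -4.82, beside 21.2%, 20.4% and 19.6% of all genes higher and 20.7%, 19.7% and 21% lower. Cdh6, a type II cadherin of kidney and neural crest, fell from 21.6, 21.5 and 21.8 CPM to 0.146, 0.280 and 0.258 CPM. Cdh18, Cdh4 and Cdh10 fell as well. Cdhr5, a brush border protocadherin of gut, kidney and liver, was higher in Hep (105 CPM) than in MEF, and reached 49.7 ± 71.4, 8.56 ± 4.24 and 10.3 ± 7.74 CPM in iHep. Enzymes that process cadherins numbered 12, of which 11 were tested. At 48 h only Psen2, a catalytic subunit of gamma-secretase, was called (log2 -0.98, -1.05 and -0.96). In the second step 2 of the 11 were higher with each factor and 3, 3 and 4 lower. Both steps are to be read against the shares of all genes given above for the same step. Mmp14, a membrane-bound matrix metalloproteinase, fell by 3.12, 2.04 and 2.86. Furin, the convertase that removes the E-cadherin propeptide, rose by 0.85, 1.02 and 0.88, and Adam10, the sheddase of E-cadherin and N-cadherin, rose with Foxa1 to 459 CPM from 261 CPM.

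The order of the group means of each member over the 9 groups summarises the patterns. Cdh1 ran from iHep_Foxa2, iHep_Foxa1 and iHep_Foxa3, which overlapped, through Hep, 48h_Foxa3, the overlapping 48h_Foxa1 and 48h_Foxa2, and 48h_Foxa3del2 to MEF. Cdh11 ran from the 48 h groups through MEF, 48h_Foxa3del2 and the overlapping iHep groups to Hep, which overlapped iHep_Foxa1. Cdh2 ran from 48h_Foxa3del2 through Hep, the 48 h groups and MEF to the overlapping iHep groups, with Hep overlapping 48h_Foxa2. Among genes of at least 1 CPM in 1 group, the pattern of log2 CPM over the 9 group means most like that of Cdh1 was shown by Ripk4 (r = 0.996), Sytl5 (0.993) and Rundc3b (0.981). For Cdh11 these were Gxylt2 (0.998), Efr3b (0.996) and Cldn34c1 (0.995). For Cdh2 they were Hunk (0.996), Cd83 (0.98) and Gdi2 (0.976), and for Cdh3 Zfp518b (0.998), Zfp521 (0.998) and Dync2h1 (0.997). With 9 points such values are a description, and over the 28 single libraries Cdh1 and Ripk4 had r = 0.983.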

How the data were processed

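The deposited files hold, for each of 30710 transcripts, an expected count and an FPKM value made by the authors, per the file headers. The submitters' processing notes name BWA 0.7.12 and mm9. The quantifier is not given in the sources used here, nor whether strand was used in counting. Transcripts were named through RefSeq (30186) and GENCODE (185). The 339 without a name held 0.609% to 3.21% of reads. Expected counts were summed per gene and rounded. The model was fitted in R 4.3.3 with edgeR 4.0.16 (filterByExpr, TMM, robust quasi-likelihood F test, 2-sided), with 1 coefficient per group over 28 libraries and 19 residual degrees of freedom, and tested on simulated data. Of each gene list, the text may name in each comparison 4 called genes (lowest adjusted p first) and the 4 of highest mean level. Alternatives used DESeq2 1.42.0 and limma 3.58.1 on log2(FPKM + 1). The members and lists were chosen with earlier results of these data known. Floors cover counting error only. Replicate numbers were not taken as pairs.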

Additional observations from a re-analysis of the deposited data

Results flagged for a closer look

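In groups of 4 to 10 libraries, a library was flagged when its gap to its nearest neighbour exceeded the critical share of the group's range. This was so in 6 of 21 groups of a member's levels. The critical share gives about 1 in 20 by chance only for normally distributed values. The CPM were not logged and some groups lie near 0 reads, so the number of flags cannot be set against chance. Cdh3 was at 8.91 CPM in replicate 4 of iHep_Foxa1, above the other 5. Cdh5 was at 12.1 CPM in replicate 5 of iHep_Foxa1 and at 0.0365 CPM, a single read, in replicate 1 of iHep_Foxa2, where the others had none. With the others at 0, any read count in that library would have been flagged. Cdh11 was at 12.8 CPM in replicate 2 of iHep_Foxa2, below the others. Cdh13 was at 35.1 CPM in replicate 1 of iHep_Foxa1, a level of the 48 h cells. Cdh16 was at 0.757 CPM in replicate 6 of iHep_Foxa3.

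Members that differed between iHep groups made with different Foxa factors were Cdh3 and Cdh5. For Cdh3 the log2 difference was -2.25 for Foxa1 against Foxa2 and 2.71 for Foxa2 against Foxa3. For Cdh5 the fitted differences were 7.51 and -8.08, which depend on the prior count since iHep_Foxa2 had 1 read in all. Without replicate 5 of iHep_Foxa1 the Cdh5 value for Foxa1 against Foxa2 was 4.84.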

How the results depend on the processing

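Of 394 counts of members called under an alternative, 346 were within 1.5 times the reported one and 48 were not. With the DESeq2 Wald test 2 members were called for del2 against 48h_Foxa3. With limma on log2(FPKM + 1), 0 were called at 48 h against MEF with each factor, 1 for del2 against 48h_Foxa3 and 3 for the step contrast with Foxa2. The numbers do not pair the libraries: deviations of same-numbered libraries correlated between -0.21 and 0.34, and best with their own number in 2 of 4, 2 of 6 and 1 of 4 libraries. With the replicate block 4 were called for iHep_Foxa2 against MEF, 1 for iHep_Foxa1 against iHep_Foxa2, 1 for del2 against 48h_Foxa3, 2 for del2 against MEF and 3 for the step contrast with Foxa2. With a library-set term these counts were 2 for iHep_Foxa2 against 48 h, 0 for iHep_Foxa1 against iHep_Foxa2, 1 for iHep_Foxa2 against iHep_Foxa3, 3 for del2 against 48h_Foxa3 and 1 for the step contrast with Foxa1. On the compared groups alone they were 3, 3 and 3 at 48 h against MEF, 2 for iHep_Foxa2 against 48 h, 0 for iHep_Foxa1 against iHep_Foxa2, 5 for del2 against 48h_Foxa3 and 3 for del2 against MEF. With the low library set only, 0 were called for iHep_Foxa1 against iHep_Foxa2. Leaving out 1 library gave 1 to 2, 1 to 2 and 1 to 3 for the step contrasts, 2 to 4 for iHep_Foxa2 against 48 h, 3 to 5 for iHep_Foxa3 against MEF, 2 to 6 and 3 to 5 for iHep_Foxa1 and iHep_Foxa3 against Hep, 0 to 3, 0 to 1 and 1 to 3 for the iHep pairs, and 0 to 1 for del2 against MEF. The Cdh1 step contrast with Foxa3 turned to -0.58 with the low library set only, a fit in which iHep_Foxa3 was left with replicate 1 alone. No other member's difference turned. The cause was not tested for these. Low counts limit Cdh1 in MEF, Cdh5 in MEF, at 48 h and in iHep_Foxa2, and Cdh16.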
